A study of Mus musculus with 19 samples.

Results

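The adenylyl cyclases Adcy1 to Adcy9 are the 9 membrane-bound enzymes that make cyclic AMP, and their transcripts were followed across 4 groups of mouse hippocampus. Members were chosen by gene symbol in the array annotation. Each symbol had exactly 1 probe set of its own, so no choice between probe sets arose, and 9 of 9 members were found among 19938 genes. RNA was measured on 19 Affymetrix whole-transcript arrays. APP-PS1 mice carrying APPSwe-PS1deltaE9 on ibuprofen chow (5 arrays) and on control chow (5 arrays) were set against wild-type littermates on ibuprofen chow (5 arrays) and on control chow (4 arrays). All were C57BL/6J mice aged 6 months. Ibuprofen was given at 375 ppm in the chow from 3 months of age. APP-PS1 mice are a model of amyloid plaques, and the prion protein promoter drives both transgenes of the line. The labels do not say whether an array holds 1 mouse or a pool, so p-values measure the spread between these samples.

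Adenylyl cyclases turn ATP into cyclic AMP, which activates protein kinase A, exchange factors for Rap and cyclic nucleotide-gated channels. All membrane-bound members respond to the stimulatory G protein, but they differ in what else they read: calcium with calmodulin, G protein beta-gamma subunits, or inhibitory G proteins. In the hippocampus cyclic AMP takes part in lasting changes of synaptic strength, and the calcium-stimulated cyclases link synaptic calcium to it. Ibuprofen blocks the cyclooxygenases that make prostaglandins, some of whose receptors signal to these cyclases.

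Levels are deposited RMA values on the log2 scale, where a difference of 1 is a factor of 2, and levels of different genes are not compared because each has its own probes. Differences come from 1 limma fit of all 19 arrays, with p-values adjusted over the 19938 genes and a threshold of 0.05. Array medians lay between 8.06 and 8.14. Over all probe sets, 3 arrays had a median correlation with the others below 0.99: wild-type ibuprofen chow replicate 5 at 0.9739, wild-type ibuprofen chow replicate 1 at 0.9873 and APP-PS1 control chow replicate 1 at 0.9895. Results that rest on them are given with and without them. The genotype labels held: App was higher in APP-PS1 mice by 0.34 ± 0.03 (SE) on ibuprofen chow and by 0.40 ± 0.04 (SE) on control chow, and Prnp by 0.67 ± 0.03 (SE) on each, with all APP-PS1 arrays above all wild-type arrays of the same chow.

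Adcy1, Adcy9 and Adcy2 were the members with the smallest p for genotype on ibuprofen chow, and their promoter windows are shown for that reason. RefSeq (GRCm38.p6) gave windows of 250 bases before to 50 bases after a start for 7 of the 9 members, 10 windows in all. Capitals mark the E-box CACGTG and the core of the cyclic AMP response element, TGACG or its complement CGTCA, the element through which CREB factors answer cyclic AMP. The windows lie at chr11:7063183-7063482 on the + strand (Adcy1), chr16:4420449-4420748 on the - strand (Adcy9) and chr13:68999492-68999791 on the - strand (Adcy2).
Adcy1: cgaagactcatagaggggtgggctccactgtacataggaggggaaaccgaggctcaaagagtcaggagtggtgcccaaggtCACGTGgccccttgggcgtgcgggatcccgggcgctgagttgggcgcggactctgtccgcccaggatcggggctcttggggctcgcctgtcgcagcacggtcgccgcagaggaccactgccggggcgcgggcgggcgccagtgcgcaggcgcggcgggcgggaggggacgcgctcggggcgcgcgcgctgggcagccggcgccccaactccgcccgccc
Adcy9: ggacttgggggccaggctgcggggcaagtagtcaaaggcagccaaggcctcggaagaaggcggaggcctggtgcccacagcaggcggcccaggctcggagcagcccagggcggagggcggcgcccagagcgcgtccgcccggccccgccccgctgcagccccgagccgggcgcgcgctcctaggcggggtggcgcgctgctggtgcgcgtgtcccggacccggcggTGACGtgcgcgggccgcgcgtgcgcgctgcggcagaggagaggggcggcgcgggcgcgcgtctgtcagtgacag
Adcy2: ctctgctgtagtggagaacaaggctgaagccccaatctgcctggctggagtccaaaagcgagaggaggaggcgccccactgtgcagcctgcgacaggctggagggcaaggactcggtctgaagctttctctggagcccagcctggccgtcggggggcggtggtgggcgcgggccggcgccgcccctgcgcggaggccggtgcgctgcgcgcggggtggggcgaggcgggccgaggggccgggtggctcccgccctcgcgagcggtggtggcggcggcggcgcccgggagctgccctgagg

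The Adcy1 window holds 1 E-box and 5 GC boxes (GGGCGG or CCGCCC) and no such core. The Adcy9 window holds 1 core and 5 GC boxes, and the Adcy2 window 3 GC boxes and neither of the other motifs. GC content was 74% in the Adcy1 window, 78.3% in that of Adcy9 and 75% in that of Adcy2, beside a median of 52.7% over 32851 mouse windows. Over both strands the core occurred in 2 of the 10 member windows (the other is 1 of 3 windows of Adcy7) and in 20.8% of all windows. The full element TGACGTCA, which contains the core on both strands, occurred in 0 of 10 and in 1.79% of all windows. The E-box occurred in 1 of 10 and in 7.15% of all, the GC box, whose matches can overlap, in 6 of 10 and in 35.7%, and TATAAA in 0 of 10 and in 13.6%. These matches describe letters in the windows, and binding was not measured.

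Adcy1 (probe set 10374202) encodes the calcium- and calmodulin-stimulated cyclase of neurons, which is needed for a lasting strengthening of mossy fibre synapses in mice. On ibuprofen chow its transcript was lower in APP-PS1 than in wild-type hippocampus, and it was the only one of the 9 members that passed the test. APP-PS1 mice on ibuprofen chow had Adcy1 levels of 11.64, 12.03, 11.77, 11.64 and 11.68 in replicates 1 to 5, and APP-PS1 mice on control chow had 11.89, 11.93, 12.19, 12.05 and 12.12. Wild-type mice on ibuprofen chow had 11.96, 12.21, 12.18, 12.19 and 12.39, and wild-type mice on control chow had 12.15, 12.24, 12.31 and 12.14 in replicates 1 to 4. Of the 5 APP-PS1 ibuprofen arrays, the 4 other than replicate 2 lay below every other array of the study. The group means were 11.75 ± 0.17, 12.04 ± 0.13, 12.19 ± 0.15 (SD, n = 5 each) and 12.21 ± 0.08 (SD, n = 4) in the same order of groups.

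**Figure D1:**
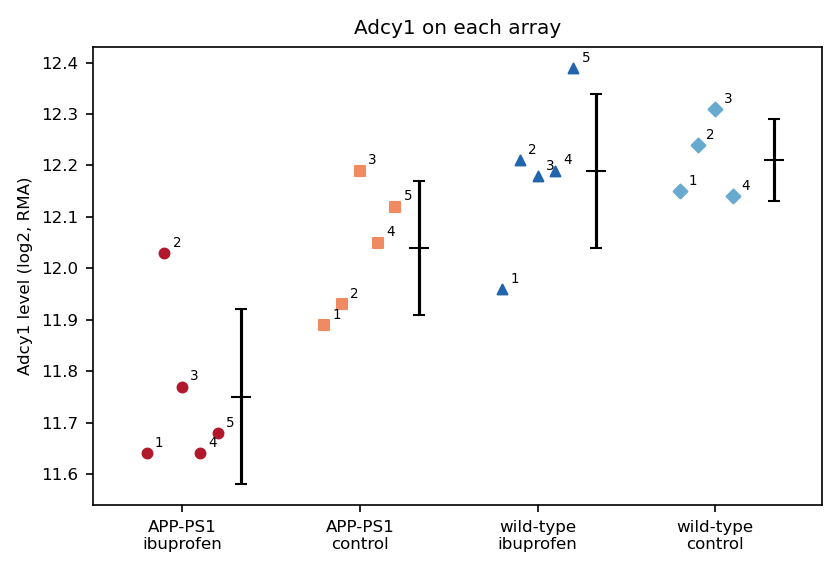
Adcy1 level (log2, RMA) on each of the 19 arrays, by group, with replicate numbers beside the points and the group mean ± SD as a bar at the right of each group. APP-PS1 mice on ibuprofen chow sit between 11.64 and 12.03, and wild-type mice on ibuprofen chow between 11.96 and 12.39.

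In APP-PS1 mice on ibuprofen chow, Adcy1 fell by 0.44 ± 0.08 (SE) relative to wild-type mice on the same chow, with limma adjusted p = 0.0128 and rank 17 of 19938 genes by p. That is 0.74 times the wild-type level, with 5 of 5 APP-PS1 arrays below the wild-type mean. The groups nevertheless overlapped, because APP-PS1 replicate 2 at 12.03 lay above wild-type replicate 1 at 11.96. In that comparison 0.251% of all genes were called lower and 0.0201% higher, and 24.5% had an unadjusted p below 0.05. Adcy1 was picked for study with this result known, so its p describes the gene and is not independent evidence. Without the 3 arrays of low correlation the difference was again -0.44, with adjusted p = 0.0209. The call was lost without APP-PS1 ibuprofen chow replicate 4 (-0.41, adjusted p = 0.0549) and in a fit of the compared groups alone (-0.44, adjusted p = 0.152). In whole tissue, fewer cells of a type and less RNA per cell cannot be told apart.

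On control chow the Adcy1 difference between APP-PS1 and wild-type mice was -0.18 ± 0.08 (SE), adjusted p = 0.829, and the arrays overlapped. Ibuprofen against control chow gave -0.29 ± 0.08 (SE) in APP-PS1 mice, with unadjusted p = 0.0013 and adjusted p = 0.716, and 5 of 5 ibuprofen arrays below the control mean. The same drug comparison in wild-type mice gave -0.03 ± 0.08 (SE), with a 95% interval from -0.20 to 0.14. The interaction, the genotype difference on ibuprofen chow minus that on control chow, was -0.26 ± 0.11 (SE), with unadjusted p = 0.031 and adjusted p = 0.22. It is therefore not shown that the genotype difference depended on the chow. Averaged over both chows the genotype difference was -0.31 ± 0.06 (SE), adjusted p = 0.0568, with rank 7 by p, where 0.00502% of all genes were called lower and 0.0201% higher. The group means thus ran, from low to high, APP-PS1 on ibuprofen, APP-PS1 on control, wild-type on ibuprofen and wild-type on control chow. The tested neighbours in that order, the first pair and the last pair, did not differ past the threshold, and the middle pair overlapped.

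Adcy8 encodes the other cyclase that calcium and calmodulin stimulate strongly. Its mean level was 9.57 ± 0.09 in APP-PS1 mice on ibuprofen chow, 9.63 ± 0.11 in APP-PS1 mice fed control chow, and 9.65 ± 0.20 in wild-type mice on ibuprofen chow (SD, n = 5 each). In wild-type mice on control chow it was 9.77 ± 0.16 (SD, n = 4). Genotype gave -0.08 ± 0.09 (SE) on ibuprofen chow, with a 95% interval from -0.26 to 0.10, and -0.14 ± 0.09 (SE) on control chow, with an interval from -0.33 to 0.05. Wild-type ibuprofen chow replicate 5 at 9.99 was the highest Adcy8 value of all arrays, and the other 4 of its group averaged 9.56 ± 0.04 (SD). Ibuprofen in wild-type mice gave -0.12 with all arrays and -0.21 (adjusted p = 0.999) without the 3 arrays of low correlation. Without those arrays genotype on ibuprofen chow gave 0 for Adcy8 (adjusted p = 0.993). Adcy3, the cyclase of olfactory neurons and of the primary cilia of neurons, had group means from 10.27 to 10.37 and differences from -0.07 to 0.09 in the 4 comparisons of single groups. The ends of that range, genotype on ibuprofen chow and ibuprofen in wild-type mice, became -0.01 and 0.03 without the 3 arrays of low correlation.

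Adcy2, Adcy4 and Adcy7 encode the cyclases that beta-gamma subunits stimulate further once the stimulatory G protein is bound. APP-PS1 mice had Adcy2 levels of 11.59, 11.74, 11.64, 11.65 and 11.65 on ibuprofen chow and 11.81, 11.76, 11.74, 11.64 and 11.73 on control chow. Wild-type mice had 11.75, 11.74, 11.75, 11.68 and 11.93 on ibuprofen chow and 11.66, 11.72, 11.73 and 11.66 on control chow. All 4 groups overlapped for this gene. Adcy2 gave -0.12 ± 0.05 (SE, adjusted p = 0.156) for genotype on ibuprofen chow, with 5 of 5 APP-PS1 arrays below the wild-type mean, and 0.05 ± 0.05 (SE, adjusted p = 0.959) on control chow. The Adcy2 interaction was -0.16 ± 0.07 (SE), unadjusted p = 0.0225 and adjusted p = 0.213. With the 3 arrays of low correlation left out, the ibuprofen chow value was -0.07 (adjusted p = 0.563) and the interaction -0.10 (adjusted p = 0.573).

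Adcy7, a cyclase of blood and immune cells that is also made in brain, was the only member with 5 of 5 APP-PS1 arrays above the wild-type mean on ibuprofen chow. The APP-PS1 arrays on that chow ranged from 8.31 to 8.55 and the wild-type arrays from 8.09 to 8.45, so the groups overlapped. The difference was 0.12 ± 0.07 (SE), adjusted p = 0.277, on ibuprofen chow and 0.05 ± 0.08 (SE), adjusted p = 0.974, on control chow. Adcy4 had a mean of 8.46 ± 0.11 (SD, n = 5) in APP-PS1 mice on ibuprofen chow and 8.39 in each of the other groups. Its genotype difference was 0.07 ± 0.08 (SE) on ibuprofen chow and 0.00 ± 0.09 (SE) on control chow.

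**Figure D2:**
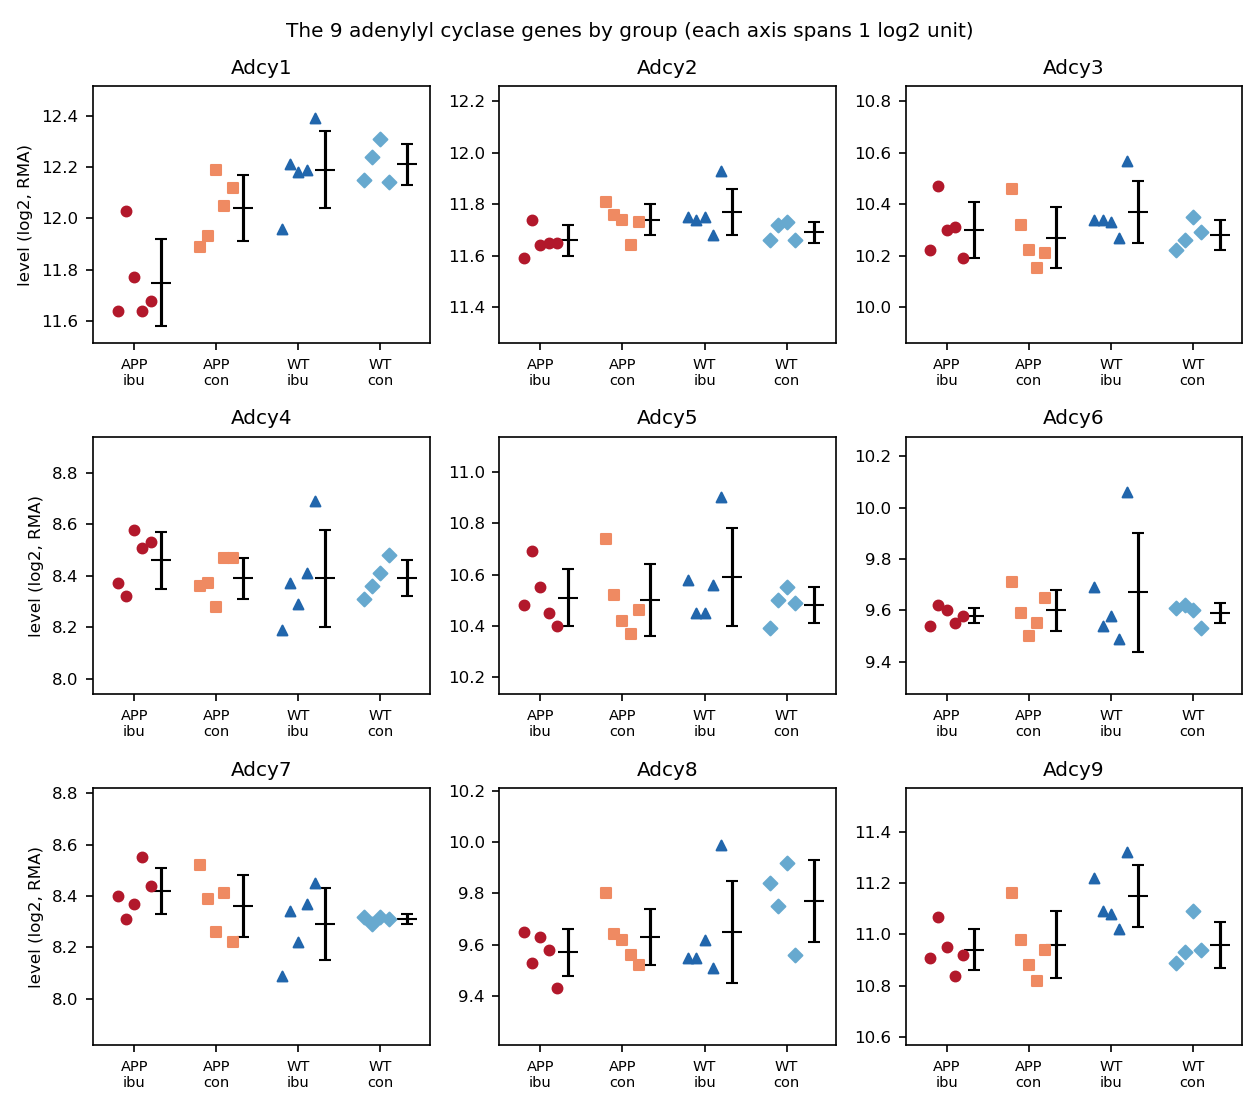
Levels (log2, RMA) of the 9 adenylyl cyclase genes on all 19 arrays, 1 panel per gene, with APP-PS1 (APP) and wild-type (WT) mice on ibuprofen (ibu) or control (con) chow and bars for the group mean ± SD. Each vertical axis spans 1 log2 unit. Wild-type ibuprofen chow replicate 5, the rightmost triangle, is the highest array for 8 of the 9 genes.

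Adcy5 and Adcy6 encode the closely related cyclases that inhibitory G proteins and free calcium restrain. Adcy5 is the main cyclase of the striatum. Its differences in the 4 comparisons of single groups ran from -0.07 to 0.10, and those of Adcy6 from -0.09 to 0.08. For genotype on ibuprofen chow the 95% interval was -0.24 to 0.10 for Adcy5 and -0.26 to 0.07 for Adcy6. Adcy6 reached 10.06 on wild-type ibuprofen chow replicate 5, against 9.49 to 9.69 on the other 4 arrays of that group. Genotype on ibuprofen chow without the 3 arrays of low correlation gave 0.03 for Adcy5 and 0.04 for Adcy6, so the sign of these small differences rested on those arrays.

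Adcy9 (probe set 10437364) encodes the cyclase that forskolin hardly activates and that is made widely, including in the hippocampus. Its levels in APP-PS1 mice were 10.91, 11.07, 10.95, 10.84 and 10.92 on ibuprofen chow and 11.16, 10.98, 10.88, 10.82 and 10.94 on control chow. In wild-type mice they were 11.22, 11.09, 11.08, 11.02 and 11.32 on ibuprofen chow and 10.89, 10.93, 11.09 and 10.94 on control chow. Wild-type mice on ibuprofen chow thus had the highest mean, 11.15 ± 0.12 (SD, n = 5), and the other groups lay at 10.94 to 10.96. Genotype on ibuprofen chow gave -0.21 ± 0.07 (SE, adjusted p = 0.131), and ibuprofen in wild-type mice gave 0.18 ± 0.07 (SE, adjusted p = 0.432), where 5 of 5 ibuprofen arrays lay above the control mean. On control chow the genotype difference was -0.01 ± 0.07 (SE). Without the 3 arrays of low correlation the value was -0.12 (adjusted p = 0.439) for genotype on ibuprofen chow and 0.10 for ibuprofen in wild-type mice. Adcy9 passed the test on ibuprofen chow only when wild-type ibuprofen chow replicate 4 was left out (-0.24, adjusted p = 0.0455). In that fit 1490 of 19938 genes passed.

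**Figure D3:**
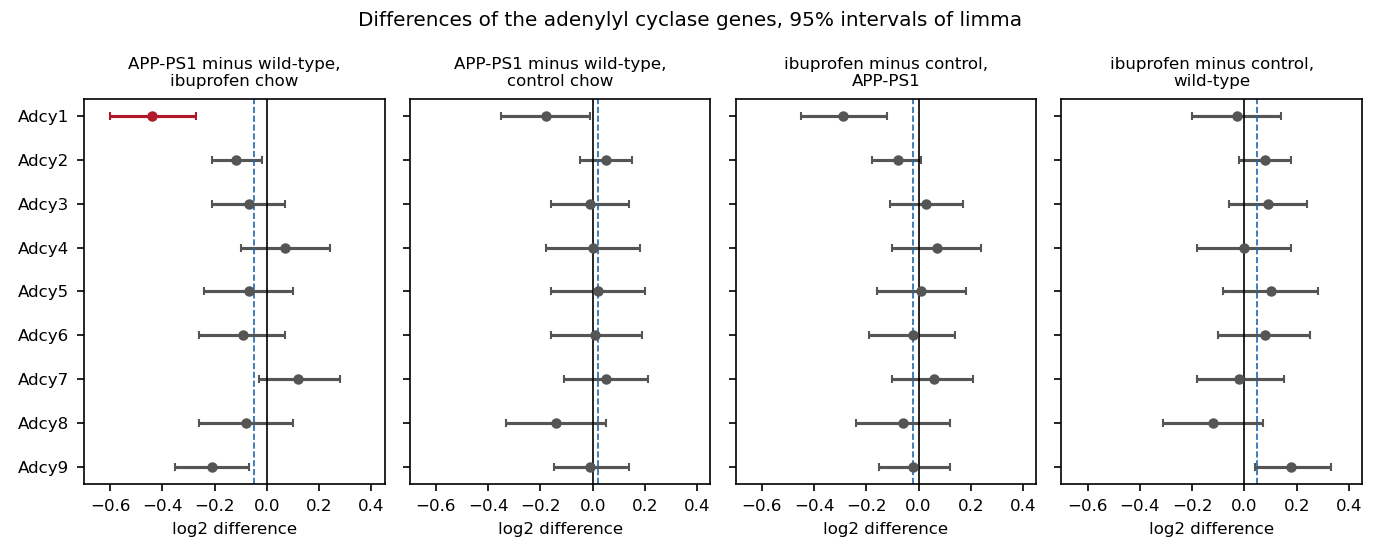
Log2 differences of the 9 genes with 95% intervals from limma in 4 comparisons, with the only call (Adcy1 on ibuprofen chow, adjusted p = 0.0128) in red and the median of all 19938 genes as a dashed line. The Adcy1 interval on ibuprofen chow runs from -0.60 to -0.27.

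Over the family, 1 of 9 members was called lower and 0 higher for genotype on ibuprofen chow, with 7 of 9 below 0 and a median of -0.08. The median of all genes in that comparison was -0.05, and 37.8% of them lay above 0. Of all genes 0.251% were called lower and 0.0201% higher there. An unadjusted p below 0.05 was found for 3 members and for 24.5% of all genes. Without the 3 arrays of low correlation the differences of Adcy1 to Adcy9 there were -0.44, -0.07, -0.01, 0.10, 0.03, 0.04, 0.11, 0 and -0.12. The median of all genes was 0 in that fit, so the lean of the family below 0 rested largely on those arrays. For genotype on control chow 0 of 9 members were called by limma and 1 had an unadjusted p below 0.05, beside 0.01% of all genes called and 5.87% with such a p. Ibuprofen gave 0 calls among the 9 members and 0% of all genes in either genotype. In APP-PS1 mice 1 member (Adcy1) and 6.48% of all genes, and in wild-type mice 1 member (Adcy9) and 11% of all genes, had an unadjusted p below 0.05. For the interaction 0 of 9 members and 0% of genes were called, and 3 members and 20.5% of genes had an unadjusted p below 0.05. For genotype averaged over the chows 0 of 9 members and 0.0251% of all genes were called, and 2 members and 7.7% of all genes had such a p. For ibuprofen averaged over the genotypes 0 of 9 members and 0% of genes were called, and 1 member and 1.74% of genes had such a p. In none of the 4 comparisons of single groups did the arrays of any member separate without overlap, as those of 2.29% of all genes did for genotype on ibuprofen chow and those of 3.84% on control chow. For ibuprofen these shares were 2.77% in APP-PS1 and 2.24% in wild-type mice.

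The members did not all vary together. After group means were taken out, the 10 pairs among Adcy2, Adcy3, Adcy5, Adcy6 and Adcy9 correlated at 0.69 to 0.91 over the 19 arrays. The 8 pairs that include Adcy1 correlated at -0.09 to 0.45. The first set was picked after its values were seen, and the arrays share dissection and processing. Without the 3 arrays of low correlation the first set spanned 0.23 to 0.80 and the Adcy1 pairs -0.63 to 0.59, over 16 arrays. Adcy3 with Adcy5 kept 0.80 there, and Adcy5 with Adcy6 dropped to 0.23 from 0.78 over all arrays.

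Adcy1 levels followed those of genes of dentate granule cells, the neurons whose mossy fibres run to CA3. For genotype on ibuprofen chow, 10 such marker genes had a median difference of -0.38, beside -0.05 over all genes. The list was chosen with earlier results of these data known. Beside 0.251% of all genes, 5 of the 10 were called lower in APP-PS1 than in wild-type mice. They were Prox1, the granule cell transcription factor, at -0.46 ± 0.08 (SE, adjusted p = 0.0128), Dsp, encoding desmoplakin, at -1.29 ± 0.19 (SE, adjusted p = 0.00545), Tdo2, encoding tryptophan dioxygenase, at -1.46 ± 0.28 (SE, adjusted p = 0.0189), Lct at -0.66 ± 0.13 (SE) and Il16 at -0.51 ± 0.10 (SE). C1ql2, another granule cell gene, gave 0.08 ± 0.09 (SE), and Calb1, encoding calbindin, gave -0.29 ± 0.09 (SE, adjusted p = 0.13). The count of 5 was 2 without the 3 arrays of low correlation. Leaving out single arrays of APP-PS1 mice on ibuprofen chow made it 1 (replicate 4), 2 (replicate 1) or 3 (replicate 3 or replicate 5), and leaving out replicate 5 of the wild-type mice on that chow made it 2. In a fit of the compared groups alone it was also 1.

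The mean of the 10 granule cell genes ranged from 9.36 to 9.99 in APP-PS1 mice on ibuprofen chow and from 9.81 to 10.14 in those on control chow. It ranged from 10.04 to 10.31 in wild-type mice on ibuprofen chow and from 9.90 to 10.06 in wild-type mice on control chow. Over the 19 arrays this mean correlated with Adcy1 at Pearson r = 0.86 (Spearman rho = 0.77), at 0.85 without the 2 arrays farthest from its median and at 0.69 after group means were taken out. The r was 0.88 without the 3 arrays of low correlation, and 0.69 within groups. Over the 14 arrays of the 3 groups other than APP-PS1 on ibuprofen chow it was 0.61, and 0.68 within groups, so the higher value over all arrays rests on that group. APP-PS1 ibuprofen chow replicate 2, the array of that group with the highest Adcy1, also had the group's highest granule cell mean, 9.99. For the other marker lists r with Adcy1 was 0.43 for CA1 pyramidal cells, 0.17 for CA3 pyramidal cells, -0.20 for neurons and -0.26 for microglia. It was -0.48 for astrocytes, -0.22 for choroid plexus, 0.04 for striatum, 0.01 for oligodendrocytes and 0.05 for endothelial cells. Without the 2 arrays farthest from the list's median it was 0.06 for CA1, -0.21 for astrocytes, -0.49 for choroid plexus and -0.28 to 0.12 for the rest. Within groups it was 0.43 for CA1, -0.19 for astrocytes, 0.07 for choroid plexus and -0.19 to 0.33 for the rest. Neuron markers as a whole averaged 12.97 ± 0.03 in APP-PS1 and 12.95 ± 0.05 in wild-type mice on ibuprofen chow (SD, n = 5 each). Other marker lists also leaned to one side for genotype on ibuprofen chow, and none of their genes was called. Of CA3 genes 5 of 6 lay below 0 (median -0.23), and of CA1 genes 4 of 5 did (median -0.13). Of oligodendrocyte genes 6 of 7 lay below 0 (median -0.03), and 10 of 10 choroid plexus genes lay above 0 (median 0.70). Over all genes 37.8% lay above 0 in that comparison. The CA3 mean was 9.74 and 9.78 on wild-type ibuprofen chow replicates 1 and 5, both arrays of low correlation. It was 9.48 to 9.51 on the rest of that group and 9.26 to 9.56 in APP-PS1 mice on ibuprofen chow. The choroid plexus mean ranged from 8.4 to 10.56 in APP-PS1 and from 7.98 to 10.66 in wild-type mice on that chow. With that mean as a covariate Adcy1 gave -0.44 (adjusted p = 0.018) on ibuprofen chow. The part of granule cell, CA3 or CA1 content in the Adcy1 difference was not tested.

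**Figure D4:**
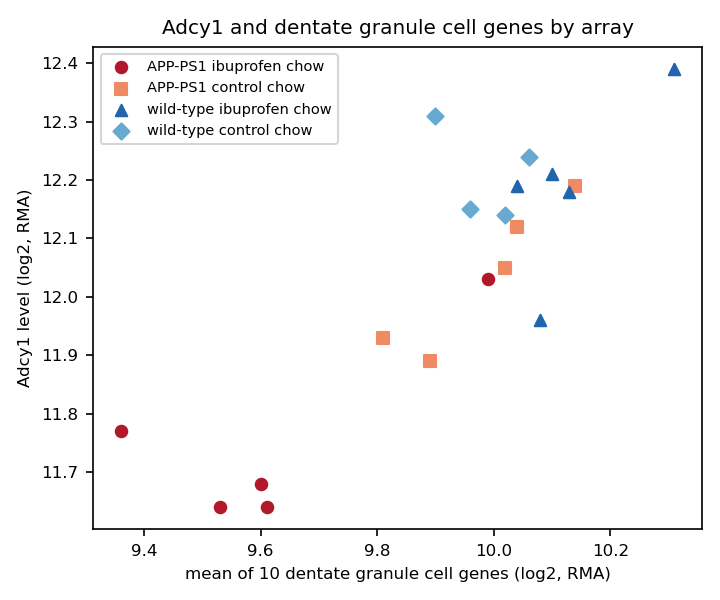
Adcy1 level against the mean of 10 dentate granule cell genes (both log2, RMA), 1 point per array, coloured and shaped by group. Of the APP-PS1 ibuprofen arrays, 4 lie at the lower left, and replicate 2 lies at 9.99 and 12.03 among the other groups.

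Over all genes and all 19 arrays, the 5 with the highest Pearson correlation with Adcy1 were Mkx (0.95), Dsp (0.93), Rtl3 (0.92), Rasgrf2 (0.92) and Bcl6 (0.91). Within groups these values were 0.88, 0.85, 0.78, 0.80 and 0.77. Genes most alike and most opposite to Adcy1 were picked on the same arrays that gave the differences below. Their genotype differences are therefore not independent of that choice. Mkx, encoding a homeobox factor, gave -0.58 ± 0.10 (SE, adjusted p = 0.0128) for genotype on ibuprofen chow. For Rtl3, of retrotransposon origin, the difference was -1.21 ± 0.19 (SE, adjusted p = 0.0063), and Bcl6, encoding a transcriptional repressor, gave -0.38 ± 0.08 (SE, adjusted p = 0.0453). Rasgrf2, encoding a calcium-responsive exchange factor for Ras, gave -0.37 ± 0.09 (SE, adjusted p = 0.0799). The 5 most opposite genes were Clec7a (-0.84), a receptor of plaque-associated microglia, Drd1 (-0.84), Tmc6 (-0.82), Mir298 (-0.81) and Ppl (-0.80). None of those 5 was called for genotype on ibuprofen chow, where Clec7a gave 0.27 ± 0.07 (SE, adjusted p = 0.101). The calls of Mkx and of the granule cell gene Prox1 were lost without APP-PS1 ibuprofen chow replicate 4 (adjusted p = 0.0532 for each), and that of Bcl6 without any 1 of 13 arrays. Leaving out the 3 arrays of low correlation also ended the calls of Prox1 (-0.38, adjusted p = 0.0734) and Bcl6 (-0.36, adjusted p = 0.137) but not that of Mkx (-0.51, adjusted p = 0.0407). In a fit of the compared groups alone Mkx had adjusted p = 0.152, Prox1 0.163 and Bcl6 0.272. Dsp and Rtl3 were called in all 19 fits with 1 array left out and without the 3 arrays of low correlation (-1.26 for Dsp and -1.12 for Rtl3, adjusted p = 0.0199 for each).

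Of 142 other genes of the cyclic AMP pathway, listed by role, 130 were measured and 12 were not analysed here. On ibuprofen chow 2 of the 130 were called lower and 0 higher in APP-PS1 mice, beside 0.251% and 0.0201% of all genes. Of the 130, 97 lay below 0 and 33 above it, where 37.8% of all genes lay above 0. Their median was -0.08, beside -0.05 over all genes. The first of the called pair, Camkk2, encodes the kinase that calmodulin turns on and that activates other calcium/calmodulin kinases. Its levels were 9.77, 10.01, 9.62, 9.75 and 9.67 in APP-PS1 mice on ibuprofen chow, against 10.18, 10.06, 10.12, 10.15 and 10.47 in wild-type mice on ibuprofen chow. All APP-PS1 arrays lay below all wild-type arrays, and Camkk2 fell by 0.43 ± 0.08 (SE, adjusted p = 0.0128). On control chow the Camkk2 difference was -0.08 ± 0.08 (SE). The other, Cap2, encodes a cyclase-associated protein that binds actin.

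Cap2 levels were 12.73, 12.88, 12.83, 12.79 and 12.79 in APP-PS1 mice on ibuprofen chow, against 13.01, 12.96, 12.97, 12.97 and 13.11 in wild-type mice on ibuprofen chow. Again the groups did not overlap, and Cap2 fell by 0.20 ± 0.04 (SE, adjusted p = 0.0154). For Cap2 the control chow difference was 0.07 ± 0.04 (SE, adjusted p = 0.889), and the interaction was -0.27 ± 0.05 (SE), rank 4 by p with adjusted p = 0.208. Leaving out the 3 arrays of low correlation gave Camkk2 -0.35 (adjusted p = 0.047) and Cap2 -0.16 (adjusted p = 0.0532). Both calls were lost without APP-PS1 ibuprofen chow replicate 4 (adjusted p = 0.0532 for Camkk2 and 0.0559 for Cap2), that of Cap2 also without replicate 1 (0.0658) or replicate 5 (0.0539) of that group, and both in a fit of the compared groups alone (0.184 for Camkk2 and 0.152 for Cap2). The count of 2 became 12 without replicate 2 of APP-PS1 mice on ibuprofen chow, and it became 16 without replicate 4 of wild-type mice on that chow. Without that wild-type array 1490 of all 19938 genes were called in either direction, in place of 54. With 1 array left out the count over all genes ran from 10 to 1490, so the pathway count moved along with that of all genes.

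Upstream of the cyclases, 0 of 14 G protein subunit genes, 0 of 18 receptors coupled to stimulation and 0 of 24 receptors coupled to inhibition were called on ibuprofen chow, with medians of -0.05, -0.01 and -0.09. Mc4r, the melanocortin receptor that raises cyclic AMP, gave -0.52 ± 0.12 (SE, adjusted p = 0.0541), with 5 of 5 APP-PS1 arrays below the wild-type mean. Drd1, the dopamine receptor of the same coupling and a marker of striatum, gave 0.45 ± 0.12 (SE, adjusted p = 0.0874), while 3 of 6 measured striatum markers lay above 0. Htr1b, a serotonin receptor coupled to inhibition, gave -0.28 ± 0.07 (SE, adjusted p = 0.0804). Of 11 genes of calmodulin, calcium/calmodulin kinases and the calmodulin-binding proteins Nrgn, Pcp4 and Gap43, 1 (Camkk2) was called and 8 lay below 0.

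Downstream, 0 of 16 phosphodiesterase genes, which break cyclic AMP down, were called on ibuprofen chow, with 13 below 0 and a median of -0.11. Pde7a, a phosphodiesterase specific for cyclic AMP, had all 5 APP-PS1 arrays below all wild-type arrays and gave -0.27 ± 0.07 (SE, adjusted p = 0.067). Both Mc4r and Pde7a were called when replicate 2 of APP-PS1 mice on ibuprofen chow was left out (adjusted p = 0.00263 for Mc4r and 0.036 for Pde7a). They were also called without replicate 4 of wild-type mice on that chow (0.0294 for Mc4r and 0.0327 for Pde7a), where 1490 of 19938 genes were called. Each was called in only 2 of the 19 fits with 1 array left out. Without the 3 arrays of low correlation Mc4r gave -0.42 (adjusted p = 0.225) and Pde7a -0.23 (adjusted p = 0.185). In a fit of the compared groups alone adjusted p was 0.272 for Mc4r and 0.312 for Pde7a. Of 18 genes of protein kinase A subunits, inhibitors and anchors 0 were called, with 14 below 0 and a median of -0.11. Of 7 exchange factor and channel genes 0 were called, and of 15 genes of CREB factors, coactivators and phosphatase regulators 0 were called, with a median of -0.12. Among 7 genes of the soluble cyclase and of cyclase partners 1 (Cap2) was called and 6 lay below 0. Over all 19 arrays 37.8% of all genes lay above 0 on ibuprofen chow, with a median of -0.05. Without the 3 arrays of low correlation the median of all genes on that chow was 0, and 1 of the 130 pathway genes was called lower.

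**Figure D5:**
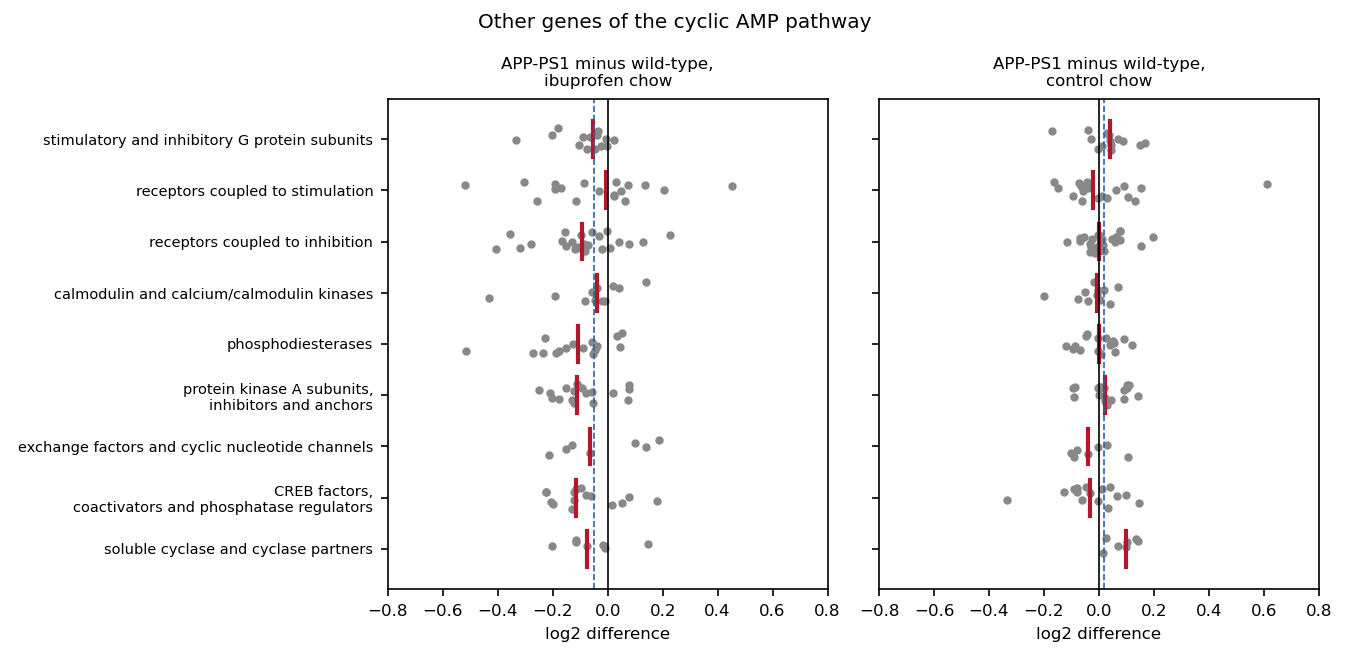
Log2 differences of 130 other genes of the cyclic AMP pathway in 9 lists, APP-PS1 minus wild-type, on ibuprofen chow (left) and control chow (right), with the median of each list in red and that of all 19938 genes as a dashed line. Vertical scatter within a list carries no meaning. On ibuprofen chow 97 of the 130 genes lie below 0, and on control chow 60 do. Of all genes 37.8% lie above 0 on ibuprofen chow and 57.9% on control chow.

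On control chow 0 of the 130 pathway genes were called, beside 0.01% of all genes. Of the 130, 70 lay above 0, beside 57.9% of all genes. Their median was 0.01, beside 0.02 over all genes. Arpp21, encoding a neuronal phosphoprotein that protein kinase A modifies, gave -0.34 ± 0.06 (SE, adjusted p = 0.0533), with all APP-PS1 arrays below all wild-type arrays. Averaged over both chows it was the only pathway gene called, at -0.23 ± 0.04 (SE, adjusted p = 0.0345). That call held in 7 of 19 fits that each left out 1 array (adjusted p between 0.0162 and 0.117), and it was lost without the 3 arrays of low correlation (-0.23, adjusted p = 0.0723). Glp1r, the receptor for glucagon-like peptide, gave 0.61 ± 0.18 (SE, adjusted p = 0.762) on control chow, and Cap1, the widely made relative of Cap2, gave 0.14 ± 0.04 (SE, adjusted p = 0.762). Ibuprofen gave 0 pathway calls in either genotype. In APP-PS1 mice 41 of the 130 lay above 0, with a median of -0.03, beside 41.8% of all genes above 0 and a median of -0.02. In wild-type mice 99 lay above 0, with a median of 0.05, beside 66.8% of all genes above 0 and the same median. In wild-type mice the smallest p among them belonged to Cap2 at 0.13 ± 0.04 (SE), the kinase anchor Akap11 at 0.15 ± 0.05 (SE) and the serotonin receptor Htr4 at 0.19 ± 0.07 (SE), each with adjusted p = 0.432.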

How the data were processed

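RNA of mouse hippocampus was hybridised to 19 whole-transcript arrays. Each deposited value is the log2 level of a probe set. Per the submitters' processing notes the authors used RMA in Partek 6.5, and the settings are not given in the sources used here. RMA usually quantile-normalizes arrays, which would hide a shift common to all genes. No further normalization was applied, and the number of arrays limits the precision.

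An annotation of 2016 gave 1 gene symbol to 21789 of 35556 probe sets, and the probe set with the highest mean represented each of 19938 genes. One fit (limma 3.58.1, R 4.3.3, version 1.17.8 of data.table) with a mean per group, an intensity trend, 15 residual and 6.65 prior degrees of freedom gave 7 two-sided comparisons, adjusted by Benjamini and Hochberg over all genes. The fit was tried on simulated data with independent noise and no effects shared by an array. That trial does not bear on how far single arrays move the calls. Members, gene lists, marker lists and alternatives were chosen with earlier results of these data known. Named genes were the members, pathway genes called or among the 3 smallest p of a comparison, and the 5 genes most alike and most opposite to Adcy1. The settings for list counts were added after the values were seen. Of the listed pathway genes, 12 were not analysed here. Alternatives were other normalization, filters, probe set means, empirical Bayes settings, array weights, the compared groups alone, a replicate block, a choroid plexus covariate, and left-out arrays. Sex, litter, batch and scan date were not used here. Figures used Python 3.11.15 and matplotlib 3.10.9.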

Additional observations from a re-analysis of the deposited data

Results flagged for a closer look

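Wild-type ibuprofen chow replicate 5 stood above the other 4 arrays of its group for 4 members, with a gap to the nearest array that took more of the group's range than Dixon's 95% limit of 0.71 for 5 samples. The gap was 0.716 of the range for Adcy2 (11.93, next 11.75), 0.744 for Adcy3 (10.57, next 10.34), 0.717 for Adcy5 (10.90, next 10.58) and 0.777 for Adcy8 (9.99, next 9.62). In all, 36 groups of values were examined, and chance alone marks about 1 group in 20. The 4 values come from 1 array, the one with the lowest correlation with the others (0.9739), so they are not separate events.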

How the results depend on the processing

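Over 63 differences of members and 1863 values under alternatives or with 1 array left out, 61 changed sign, in 20 results with a reported size of at most 0.10, none of them called. Signs were read from values rounded to 2 decimals, so a difference reported as 0 could not count as changed. For genotype on ibuprofen chow the count of 1 member called was 0 in a fit of the compared groups alone and ranged from 0 to 2 with 1 array left out, and the Adcy1 difference ranged from -0.47 to -0.42 under alternatives and from -0.51 to -0.39 with 1 array left out. With array weights 1 member, Adcy1, was called for ibuprofen in APP-PS1 mice (-0.35, adjusted p = 0.0118) and for the interaction (-0.36, adjusted p = 0.0483). For genotype averaged over the chows 1 member, again Adcy1, was called with the dimmest 25% of genes left out (adjusted p = 0.0467), with array weights (adjusted p = 0.0012) and with a replicate block (-0.31, adjusted p = 0.0177), and 0 to 1 with 1 array left out: it was called without replicate 3 of APP-PS1 on control chow (adjusted p = 0.0385), replicate 2 of APP-PS1 on ibuprofen chow (0.00436) or replicate 1 of wild-type on ibuprofen chow (0.0144). The causes were not tested. Same-numbered arrays varied together in part (27 pairs, r from -0.27 to 0.60, 16 over 0.1), and in 23 of 54 cases an array correlated best with its own number in another group. Since not every pair exceeded 0.1 and the labels name nothing shared, the numbers were not used as pairs. The replicate block gave Adcy1 -0.44 (adjusted p = 0.0119) and 197 genes called in place of 54 on ibuprofen chow. Counts over all genes moved more: 54 for genotype on ibuprofen chow became 5 to 1004 under alternatives and 10 (without APP-PS1 ibuprofen chow replicate 4) to 1490 (without wild-type ibuprofen chow replicate 4) with 1 array left out, and the 5 for genotype averaged over the chows became 4 to 342 and 3 to 52. The 2 called for genotype on control chow became 2 to 8 under alternatives, and with array weights the count of 0 became 108 for the drug in APP-PS1 mice, 2 for the drug in wild types and 174 for the interaction. Added after seeing the data, counts of lower genes on ibuprofen chow under alternatives other than leave-outs ranged from 0 to 18 for the pathway (2 reported) and from 1 to 7 for dentate granule cells (5 reported).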
